A study of Mus musculus with 8 samples.

Results

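The TIF1 genes (transcriptional intermediary factor 1) form a family of 4 in the mouse. Trim28 encodes KAP1, the target of the knockdown in these cells, Trim24 encodes TIF1α, Trim33 encodes TIF1γ and Trim66 encodes TIF1δ. The members were chosen by name, and all 4 were found among the 21915 Ensembl genes of the mRNA-seq table. The series holds 8 samples, of which 4 carry mRNA. These 4 hold polyadenylated RNA from the mouse hepatoma line Hepa 1-6, collected 5 days after transduction, with 2 control and 2 Kap1 knockdown (KD) samples. Per the methods, a lentiviral pLKO vector with an shRNA against Kap1 was compared with the empty vector in puromycin-selected populations, whereas the labels name transfection with a plasmid and a control shRNA. The other 4 samples are small RNA libraries, whose tables of 475 and 467 sequences list tRNA and snoRNA only and none of the 4 genes.

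TIF1 proteins share a tripartite motif at the amino-terminal end (a RING finger, B-boxes and a coiled coil) and a PHD finger followed by a bromodomain at the carboxy-terminal end. KAP1 is recruited to DNA by KRAB zinc-finger proteins, and brings the histone methyltransferase SETDB1 and heterochromatin protein HP1 to silenced loci such as transposable elements. TIF1α is a coregulator of nuclear receptors and a reader of histone tails whose loss leads to liver tumours in mice, TIF1γ acts on SMAD proteins of the TGF-β pathway, and TIF1δ is best known from the testis.

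The PxVxL pentapeptide, in which x is any residue, is the short motif through which KAP1 binds HP1, and the bases that encode it are shown because they separate the members by sequence. The longest coding sequence of each gene in the mm9 annotation was translated and searched. The motif was found in Trim28, Trim24 and Trim66 and was not found in Trim33, while 13.9% of all 21734 annotated coding genes held at least 1 match. The coding strand is given 5′ to 3′, with the 15 bases of the pentapeptide in capitals.
Trim28: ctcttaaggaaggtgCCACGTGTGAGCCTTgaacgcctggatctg
Trim24: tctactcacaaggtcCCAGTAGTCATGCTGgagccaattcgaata
Trim66: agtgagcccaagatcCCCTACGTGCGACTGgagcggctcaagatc
In mm9 these coding bases lie in exon 12 of 17 of Trim28 (chr7:13614723-13614767, plus strand), in exon 14 of 19 of Trim24 (chr6:37907038-37907082, plus strand) and in exon 14 of 20 of Trim66 (chr7:116601745-116601789, minus strand). A PHD finger pattern was found in all 4 members and in 0.469% of annotated coding genes. A RING finger pattern was found in Trim28, Trim33 and Trim66 and in 0.939% of coding genes, and its letters were not matched in Trim24.

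The coding sequences of the members shared only short exact runs of bases. Near matches, pseudogenes and non-coding transcripts were not searched, so that every read was counted apart was not tested. The longest run of bases common to the coding sequences of 2 members was between Trim24 and Trim33, and had 17 bases.
Trim24 and Trim33: AATGAAGACTGGTGTGC
For the other 5 pairs it was between 11 and 14 bases. None of the 50-base words of a member's coding transcripts (3196 for Trim28, 4318 for Trim24, 8868 for Trim33 and 9691 for Trim66) occurred in another member or in any other annotated coding transcript, on either strand. The predicted proteins, of 834 residues for KAP1, 1051 for TIF1α, 1140 for TIF1γ and 1344 for TIF1δ, were most alike between TIF1α and TIF1γ, with 54.6% identity over aligned residues. KAP1 had 34.7% identity with TIF1α, 37.9% with TIF1γ and 25.9% with TIF1δ.

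The 4 libraries held between 41566888 and 53605115 counts, and 14142 genes, all 4 members included, passed the filter on low counts. Only 1 sample title of each group carries a number, 2, and the unnumbered sample is called replicate 1 here. Nothing in the labels says that the samples came from separate cultures, so p-values measure only the spread between these samples. Of 11 hepatocyte and hepatoma markers, Alb (albumin) had 20626 to 88000 counts per library, Afp (α-fetoprotein) 20838 to 38829, the keratins Krt8 and Krt18 51025 to 103600, Hnf4a 3638 to 10054, Apob 540 to 1675 and Trf 281 to 601. The other 4 were low, with 5 to 21 counts of Apoa1, 5 to 34 of Gpc3 and at most 11 of Ttr and 2 of H19. Of the 13 markers of other cell types in the table, Ptprc, Emr1, Cdh5, Kdr and Acta2 had at most 8 counts and were not tested, and Pecam1, Lyz2, Col1a1 and Col3a1 had 3 to 71. Krt7 had 1173 to 4623 counts, Sox9 1224 to 2071, the macrophage marker Cd68 136 to 347 and Krt19 11 to 124. Some hepatic markers also moved with the knockdown. For 5 of the 9 tested (55.6%, against 10.6% of all tested genes), neither Kap1 KD sample reached the lower control. These were Afp, Alb, Apoa1, Apob and Trf. The groups overlapped for Hnf4a, Gpc3, Krt8 and Krt18, and Krt8 and Krt18 were higher in Kap1 KD cells in both pairs of same-numbered samples. The list had a median log2 change of -0.56, which was the value of Gpc3 (standard error 0.82). The 11 hepatic markers summed to 4912 and 5663 CPM (counts scaled to a common library size) in control and 4440 and 5018 CPM in Kap1 KD cells. Of this, Krt18 held 1427 and 2011 CPM in control and 1557 and 2215 in Kap1 KD cells, and Krt8 1057 and 1619 against 1198 and 1749. Alb had 1580 and 1037 CPM against 975 and 441, a decrease that the sums hide in part. In edgeR with the replicate number as a block, 3 of the 9 tested were called lower (against 2.40% of all tested genes) and 0 higher (against 2.06%). The 13 markers of other cell types summed to 128 and 82.7 CPM in control and 103 and 71.1 CPM in Kap1 KD cells. Of the 8 tested, 1 was higher without overlap (12.5%, against 9.69% of all tested genes), Col1a1, from 32 to 71 counts. Sox9 alone was lower without overlap (12.5%, against 10.6%). With the block 1 of the 8 was called higher (against 2.06% of all tested genes) and 0 lower (against 2.40%). The part of all these markers in the results for the TIF1 genes was not tested.

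Trim28 mRNA in Kap1 KD cells stood at 23.2% and 13.7% of control in the 2 pairs of same-numbered samples, and for Trim24, Trim33 and Trim66 the control and Kap1 KD samples overlapped. Trim28 (ENSMUSG00000005566) spans bases 13609501 to 13616384 of chromosome 7 (mm9, plus strand) and has 9 annotated transcripts that gene counts do not separate. Control replicates 1 and 2 held 25400 and 28506 of its counts, and Kap1 KD replicates 1 and 2 held 4512 and 3692. After TMM normalization this came to 456 and 575 CPM in control and 106 and 78.9 in Kap1 KD cells. The groups did not overlap, and the Kap1 KD sample with the more Trim28 still lay below the lower control.

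Trim28 mRNA in Kap1 KD cells stood at 23.2% of control in the replicate 1 samples (95% exact binomial interval 22.50% to 23.97%) and at 13.7% in the replicate 2 samples (13.3% to 14.2%). These intervals treat reads as independent and hold no spread between samples, since each pair has 1 sample per condition. The reads carry no molecular identifiers and are not independent molecules, so the intervals may be too narrow even for counting error. The 2 intervals do not overlap, so the remaining share differed between the pairs by more than the counting error they assume. With 1 sample per condition in each pair, this difference has no replicate check. Control replicate 2 had the more Trim28 of the controls and Kap1 KD replicate 2 the less of the Kap1 KD samples.

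The fitted log2 change of Trim28 was -2.48 (standard error 0.25, 95% interval -3.12 to -1.84). In edgeR's quasi-likelihood test without a replicate block, Trim28 had an unadjusted p of 0.00021, the smallest among 14142 genes. Its Benjamini-Hochberg adjusted p was 0.9999. This test called 0 genes lower (0%) and 0 higher (0%), with 185 genes at an unadjusted p under 0.05. The methods name DESeq2 and do not state whether a replicate block was used. In DESeq2 without the block, the same 4 samples gave a log2 change of -2.47 (standard error 0.32) with an adjusted p of 2.57e-10. In that fit Trim28 was the 1 gene called lower (0.00456% of 21915), with 2 called higher (0.00913%). DESeq2 with the replicate number as a block called 107 genes higher and 125 lower. The paper reports far more genes changed in each direction than DESeq2 called here without the block. The DESeq2 counts with the block were closer to the paper's, though lower in each direction. With the replicate number as a block, edgeR called Trim28 lower as well, in a fit that called 2.40% of tested genes lower and 2.06% higher. Leaving out any 1 of the 4 samples gave log2 changes from -2.71 to -2.27, with adjusted p-values in edgeR between 5.61e-08 and 0.000584. Without control replicate 1 the change was -2.64, without control replicate 2 it was -2.28, without Kap1 KD replicate 1 it was -2.71 and without Kap1 KD replicate 2 it was -2.27. Those fits assume that the sample left alone in its group varies like the other group. With 2 samples in each group, the smallest p that an exact permutation test (two-sided) allows is 0.333.

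**Figure D1:**
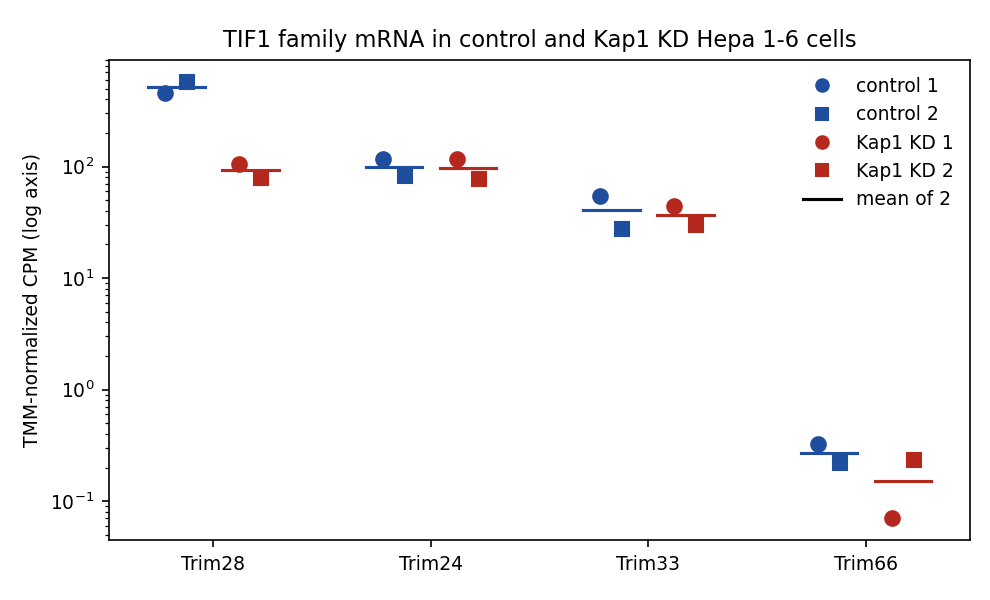
TMM-normalized CPM of the 4 TIF1 genes, on a logarithmic axis, in control (blue) and Kap1 KD (red) Hepa 1-6 cells. Circles are replicate 1, squares replicate 2 and bars the mean of 2 samples. Trim28 lies at 456 and 575 in control and at 106 and 78.9 in Kap1 KD cells, while the groups overlap for the 3 relatives.

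Against the other tested genes the decrease of Trim28 stood at the edge of the distribution. Its log2 change ranked 2nd from the most negative among 14142 tested genes and 1st among the 11813 with a mean of at least 1 CPM. The tested genes had a median log2 change of -0.02 with quartiles of -0.18 and 0.13. The change was below 0 in both pairs for 38.1% of the tested genes and above 0 in both for 32.8%, and of the 4 members Trim28 alone was below 0 in both. Both Kap1 KD samples lay below both controls in 10.6% of the tested genes and above both in 9.69%, and of the 4 members this held for Trim28 alone. A decrease of at least 1.5-fold in both pairs was seen in 208 tested genes (1.47%), and among the members again in Trim28 alone. Since Trim28 is the target of the shRNA, these values check the labels of the samples.

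Trim24 did not differ between the groups by more than the spread between replicates. Trim24 (ENSMUSG00000029833) spans bases 37820811 to 37916296 of chromosome 6 (plus strand). Trim24 had 6544 and 4069 counts in the controls and 5008 and 3598 in the Kap1 KD samples, or 117.5 and 82.0 CPM against 117.6 and 76.9. In both groups replicate 1 was the higher sample, by 1.43-fold in control and 1.53-fold in Kap1 KD cells, and the groups overlapped. The level in Kap1 KD cells was 100.1% of control in the replicate 1 samples (95% exact binomial interval 96.4% to 103.8%) and 93.8% in the replicate 2 samples (89.6% to 98.1%). The fitted log2 change without a replicate block was -0.04 (standard error 0.31). Its 95% interval reached from -0.83 to 0.76, so that neither a decrease nor an increase of 1.5-fold lay outside it. With the replicate number, which is partly inferred, as a block, edgeR gave a narrower estimate of -0.05 (standard error 0.08).

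Trim33 differed more between replicates than between groups. Trim33 (ENSMUSG00000033014) spans bases 103083216 to 103162691 of chromosome 3 (plus strand), and had 3020 and 1359 counts in the controls and 1867 and 1403 in the Kap1 KD samples. The normalized levels were 54.2 and 27.4 CPM in control and 43.8 and 30.0 CPM in Kap1 KD cells, so that both Kap1 KD samples lay between the controls. Replicate 1 exceeded replicate 2 by 1.98-fold in control and by 1.46-fold in Kap1 KD cells. The level in Kap1 KD cells was 80.8% of control (76.3% to 85.7%) in the replicate 1 samples and 109.5% (101.5% to 118.1%) in the replicate 2 samples, in opposite directions. The fitted log2 change without a replicate block was -0.15 (standard error 0.40, 95% interval -1.20 to 0.91). With the replicate number as a block, edgeR gave -0.10 (standard error 0.08).

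Trim66 was close to the limit of detection. Trim66 (ENSMUSG00000031026) spans bases 116592520 to 116651648 of chromosome 7 (minus strand), and had 18 and 11 counts in the controls and 3 and 11 in the Kap1 KD samples. This was 0.323 and 0.222 CPM in control and 0.0704 and 0.235 CPM in Kap1 KD cells. Kap1 KD replicate 1 was the low sample, and Kap1 KD replicate 2 lay between the controls. The level in Kap1 KD cells was 21.8% of control in the replicate 1 samples, from 3 counts, with a 95% exact binomial interval of 4.11% to 74.6%. It was 106% in the replicate 2 samples (41.7% to 270%). The fitted log2 change was -0.81 (standard error 0.68, 95% interval -2.60 to 0.97), and no difference was detectable at this depth. In edgeR's quasi-likelihood test Trim24, Trim33 and Trim66 all had an adjusted p of 0.9999. Trim28 had the same value there, so it does not separate the 3 relatives from the target. In DESeq2 without the block the 3 relatives had 0.99996.

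**Figure D2:**
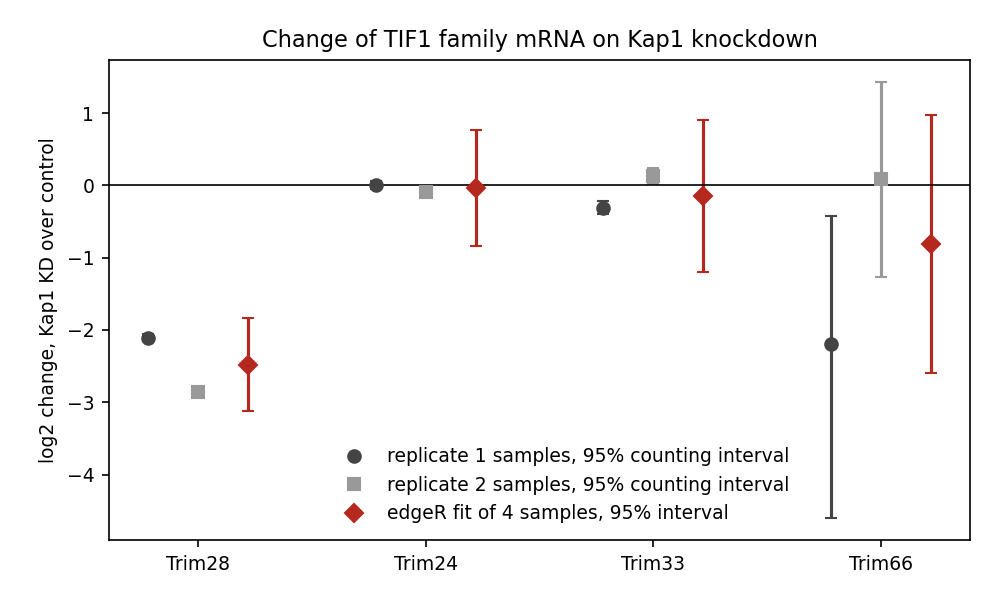
Log2 change of each TIF1 gene in Kap1 KD over control cells. Circles and squares are the replicate 1 and replicate 2 samples with 95% exact binomial intervals from the counts, and red diamonds are the edgeR fit of all 4 samples with its 95% interval. The fitted interval lies wholly below 0 for Trim28, from -3.12 to -1.84, and includes 0 for the 3 relatives.

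Levels of different genes were compared per length, as normalized CPM divided by the length of the union of annotated exons in kb. In control cells Trim28 had the highest level per length of the family, 127 ± 20.7 CPM per kb (SD, n = 2), followed by Trim24 with 11.7 ± 2.94, Trim33 with 4.60 ± 2.14 and Trim66 with 0.0269 ± 0.0071 (SD, n = 2 each). No neighbours in this order overlapped. Trim28 lay above Trim24 by 3.03 and 3.89 on the log2 scale in control replicates 1 and 2, and Trim24 lay above Trim33 by 1.17 and 1.64 in the same samples. Per length, Trim28 stood at percentile 95.9 and 96.4 of 14118 tested genes in the controls, Trim24 at 68.9 and 62.4, Trim33 at 51.3 and 40.0, and Trim66 below percentile 1.

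In Kap1 KD cells Trim28 remained the highest member by union length, at 22.9 ± 4.72 CPM per kb (SD, n = 2), against 11.4 ± 3.37 for Trim24, 4.16 ± 1.10 for Trim33 and 0.0151 ± 0.0115 for Trim66 (SD, n = 2 each). The samples of Trim28 and Trim24 did not overlap, and Trim28 lay above Trim24 by 0.93 and 1.12 on the log2 scale in Kap1 KD replicates 1 and 2. With the longest annotated transcript as the length, however, Trim28 and Trim24 overlapped in Kap1 KD cells, at 28.5 ± 5.88 and 24.1 ± 7.11 CPM per kb (SD, n = 2 each), and the log2 ratio of Trim28 to Trim24 was 0.17 and 0.35. The union of exons is 8537 bases for Trim24 and 4042 bases for its longest transcript, against 4044 and 3245 for Trim28, and gene counts do not tell which transcripts were present. Trim28 stood at percentile 81.4 and 75.1 of the tested genes in Kap1 KD replicates 1 and 2, so the transcript was still above the median gene after knockdown.

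The sum of the 4 levels per length was 144 ± 15.6 CPM per kb (SD, n = 2) in control cells, and Kap1 KD cells had 38.4 ± 9.18 (SD, n = 2). Trim28 made up 85.0% and 91.8% of this sum in control replicates 1 and 2 and 58.3% and 61.1% in Kap1 KD replicates 1 and 2. Its share with the longest transcript as the length was 80.0% and 88.3% in control and 49.0% and 52.0% in Kap1 KD cells. The groups did not overlap by either length. The summed level of the 3 relatives was 19.9 and 12.7 CPM per kb in the controls and 18.7 and 12.4 in the Kap1 KD samples, and so followed the replicate number more than the group. Trim24 was 8.29% ± 2.95 (SD, n = 2) of the sum in control and 29.4% ± 1.73 (SD, n = 2) in Kap1 KD cells, while its own level per length was 11.7 and 11.4 CPM per kb on average.

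**Figure D3:**
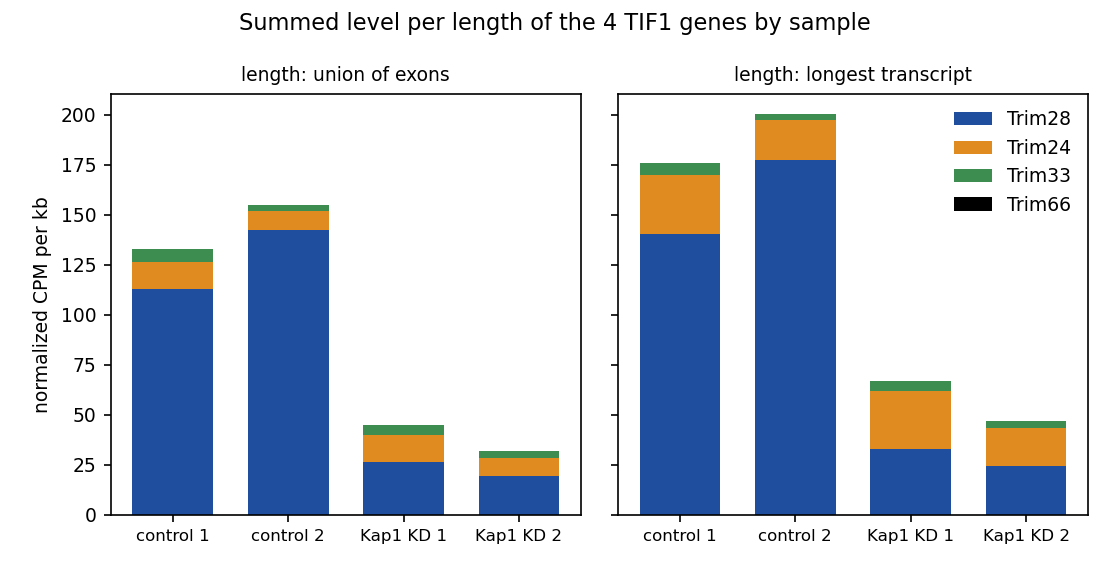
Normalized CPM per kb of the 4 TIF1 genes, stacked, for each of the 4 samples, with the union of exons (left) or the longest transcript (right) as the length. By union length the sum is 133 and 155 in control and 44.9 and 31.9 in Kap1 KD cells, and the 3 relatives sum to 19.9 and 12.7 in control and 18.7 and 12.4 in Kap1 KD cells.

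No gene next to Trim28 had a decrease of similar size. Of 7 annotated genes whose body lies within 50 kb of Trim28, 6 were tested, and their log2 changes lay between -0.13 and 0.49 with a median of 0.15. Chmp2a, which encodes a subunit of the ESCRT membrane remodelling machinery and lies 971 bases from Trim28, had 82.7 and 87.1 CPM in control and 86.0 and 87.0 CPM in Kap1 KD cells. Ube2m, a NEDD8-conjugating enzyme gene, had 124 and 148 CPM against 135 and 166. Zbtb45, a zinc-finger gene, had 13.8 and 15.5 CPM in control and 16.6 and 24.3 CPM in Kap1 KD cells. Its log2 change of 0.49 (standard error 0.27) did not pass in edgeR without the replicate block (adjusted p = 0.9999). The log2 changes of Zfp446, Mzf1 and Zfp324 were 0.16, 0.34 and -0.13, none of which passed. That fit called no gene, Trim28 included, so not passing in it cannot separate a neighbour from the target. In edgeR with the replicate number as a block, Zbtb45 had an adjusted p of 3.45e-05. Its change of 0.49 was below the fold threshold for a call. The other tested neighbours had adjusted p-values from 0.126 to 0.857 with the block. Both Kap1 KD samples lay above both controls in 2 of the 6, against 9.69% of all tested genes, Zbtb45 and Mzf1, the latter from 12 to 14 counts per sample, and below them for none.

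The rest of the TRIM family, which shares the tripartite motif, was described for comparison. Of 67 other TRIM genes listed (every Trim gene with a number, with Pml, Mid1 and Mid2), 59 were in the table and 39 were tested. None was called by edgeR without the replicate block, which called no gene at all. With the block 1 of the 39, Mid2, was called higher (against 2.06% of all tested genes) and 0 lower (against 2.40%). Both Kap1 KD samples lay below both controls in 7 of the 39 (17.9%, against 10.6% of all tested genes) and above in 2 (5.13%, against 9.69%). In both pairs the change was below 0 for 21 of the 39 (53.8%, against 38.1%) and above 0 for 9 (23.1%, against 32.8%). The median log2 change was -0.13, against -0.02 over all tested genes. Among genes of at least 1 CPM the extremes were Trim2, a neuronal ubiquitin ligase gene, at -0.49 (standard error 0.41), and Trim7 at 0.47 (standard error 0.33). Mid2, a microtubule-binding relative, was the largest change of the list and is named after its values were seen. Its counts were 4 and 5 in the control samples, against 18 and 29 after knockdown, with a log2 change of 2.57 (standard error 0.51) that did not pass in edgeR (adjusted p = 0.9999).

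**Figure D4:**
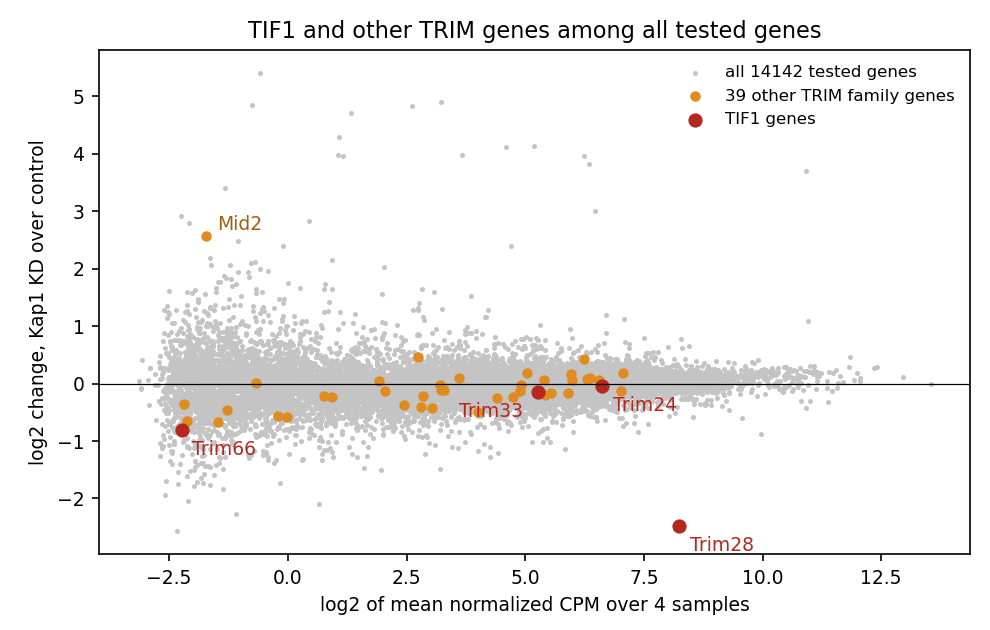
Log2 change in Kap1 KD over control cells (vertical axis) against log2 of the mean normalized CPM over the 4 samples (horizontal axis). Grey points are the 14142 tested genes, orange points 39 other TRIM family genes and red points the TIF1 genes. Trim28, at -2.48, lies apart from genes of similar level, and Trim24 and Trim33 lie near 0.

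The mRNA of listed partners of KAP1 was described next, from a list that leaves out other partners that the paper reports. All 18 listed genes of the SETDB1, HP1, NuRD and SUMO machinery were tested, as 19 entries because Atf7ip stands under 2 identifiers. Their log2 changes ranged from -0.36 to 0.14 with a median of -0.06, and none was called by edgeR without or with the replicate block. Over all tested genes the fit with the block called 2.06% higher and 2.40% lower. In 1 of the 19 entries (5.26%, against 10.6% of all tested genes) both Kap1 KD samples lay below both controls, and in 0 above both (against 9.69%). The change was below 0 in both pairs for 10 of the 19 (52.6%, against 38.1% of all tested genes). It was above 0 in both for 2 (10.5%, against 32.8%). The ends of the range were an Atf7ip entry at -0.36 (standard error 0.34) and Mbd3, a NuRD subunit, at 0.14 (standard error 0.29).

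Genes tied to the other members were described in the same way. None was called by edgeR without the replicate block, which called no gene at all. With the block, 1 of 12 tested nuclear receptor genes was called lower, and of 11 tested TGF-β and BMP targets 1 was called higher and 1 lower. No retinoic acid response gene or SMAD gene was called. Over all tested genes that fit called 2.06% higher and 2.40% lower. Of 15 nuclear receptor genes listed for TIF1α, 12 were tested, with a median log2 change of -0.26. Both Kap1 KD samples lay below both controls in 2 of the 12 (16.7%, against 10.6% of all tested genes), Thrb and Vdr. The change was below 0 in both pairs for 7 of the 12 nuclear receptor genes (58.3%, against 38.1% of all tested genes). It was above 0 in both for 1 (8.33%, against 32.8%). Vdr, the vitamin D receptor, was lowest among those of at least 1 CPM, at -0.52 (standard error 0.35), and Rxrb, a retinoid X receptor, highest at 0.28 (standard error 0.40). Of 13 retinoic acid response genes, 7 were tested, with a median of -0.23. Both Kap1 KD samples lay below both controls in 2 of the 7 (28.6%, against 10.6% of all tested genes), among them Irf1, an interferon regulatory factor gene. In both pairs the change was below 0 for 4 of the 7 (57.1%, against 38.1%) and above 0 for 1 (14.3%, against 32.8%). Tgm2, transglutaminase 2, was the lowest at -0.46 (standard error 0.29), while Stra6, the retinol transporter, was the highest of at least 1 CPM, at 0.03 (standard error 0.17).

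For TIF1γ, 7 of 8 SMAD genes were tested, with a median log2 change of -0.03. Both Kap1 KD samples lay below both controls in 2 of the 7 (28.6%, against 10.6% of all tested genes). These were Smad1, whose log2 change was -0.03, and Smad6. In both pairs the change was below 0 for 4 of the 7 (57.1%, against 38.1%) and above 0 for 3 (42.9%, against 32.8%). Smad4, the common partner, had a log2 change of 0.01 (standard error 0.17) and is named after its values were seen. The inhibitory Smad6 and Smad7 were at the ends of the range, at -0.47 (standard error 0.29) and 0.11 (standard error 0.19). Of 13 TGF-β and BMP target genes, 11 were tested, with a median of -0.23. Both Kap1 KD samples lay below both controls in 3 of the 11 (27.3%, against 10.6% of all tested genes), Bambi, Id1 and Smad6, and above both in 0 (against 9.69%). Smad6 is also counted among the SMAD genes. The list moved in both directions: the change was above 0 in both pairs for 5 of the 11 (45.5%, against 32.8% of all tested genes). It was below 0 in both for 6 (54.5%, against 38.1%). Bambi, a decoy receptor gene, was at -0.90 (standard error 0.32), from 33 to 78 counts.

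The tested genes most like each member were found by the root mean square distance between centred log2 CPM profiles over the 4 samples, among genes of at least 1 CPM. For Trim28 the 5 nearest included Fgf1, Hr, Nptx1 and Apob, at distances of 0.54, 0.58, 0.63 and 0.65 on the log2 scale. No gene lay within 0.1. Apob, the apolipoprotein of hepatic lipoproteins, had 30.1 and 30.3 CPM against 14.6 and 11.5, with a log2 change of -1.21 (standard error 0.22). The nearest profiles to Trim24 were those of Eif2s3x and Tapt1, at 0.0091 and 0.0117, with 803 of 11812 genes within 0.1. For Trim33 they were those of Rbm26 and Sema3c, at 0.0156 and 0.0217, with 242 genes within 0.1. For Trim66 the nearest were Cdh24 and Chrnb2, at 0.19 and 0.21, for a profile that rests on 3 to 18 counts per sample.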

How the data were processed

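The authors deposited raw counts per Ensembl gene for the mRNA-seq samples, made from reads of a stranded TruSeq kit with TopHat2 2.0.11 on mm9 (1 alignment reported per read) and HTSeq 0.6.1, per the labels and methods; the strand setting of the counting is not given in the sources used here. Columns were mapped to samples by title. The small RNA tables were not used, since they list no member.

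All genes were fitted with edgeR 4.0.16 in R 4.3.3 (filterByExpr, TMM, quasi-likelihood F test, no replicate block), and p-values were adjusted over all 14142 tested genes. Calls needed a 1.5-fold change and an adjusted p under 0.05. DESeq2 1.42.0, another scaling, no filter, the replicate number as a block and leaving out each sample were alternatives. Standard errors came from the log2 change and the square root of F. Depth was 41566888 to 53605115 counts. Profile distances used log2 of CPM plus 0.1. Symbols (21806 of 21915 identifiers), coordinates and lengths came from the mm9 GENCODE annotation, and coding sequences from its transcripts. The printed stretches equal the mm9 genome.

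The members and gene lists were chosen with earlier results of these data known. Named genes are the members, tested genes within 50 kb of Trim28, the largest and smallest change of each list among genes of at least 1 CPM, and the nearest profiles (5 for Trim28, 2 for each other member). ChIP-seq and RT-qPCR are not analysed here. Some genes that this rule names are not reported here.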

Additional observations from a re-analysis of the deposited data

How the results depend on the processing

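The replicate number is partly inferred, so same-numbered samples are not known to share a culture, although across 14142 genes their deviations from the group means correlated at 0.81. With the replicate number as a block, edgeR gave Trim28 a log2 change of -2.48 (standard error 0.06), which passed both thresholds, and called 292 genes higher (2.06% of those tested) and 339 lower (2.40%). Trim24, Trim33 and Trim66 did not pass with the block, at -0.05, -0.10 and -0.82 (adjusted p = 0.733, 0.397 and 0.266). DESeq2 called Trim28 without the block, at -2.47, with 2 genes higher and 1 lower in all. DESeq2 with the replicate block, added after the data were seen, gave -2.48 for Trim28 and 107 higher and 125 lower calls. When any 1 sample was left out, the log2 change ran from -2.71 to -2.27 for Trim28, -0.37 to 0.25 for Trim24, -0.53 to 0.43 for Trim33 and -1.91 to -0.21 for Trim66, with 2 to 45 genes called higher and 1 to 20 lower. The direction of Trim24 and Trim33 turned without control replicate 1 (0.24 and 0.43) and without Kap1 KD replicate 2 (0.25 and 0.12). Why fits of 3 samples called more genes was not tested. The other scalings, no low-count filter and no fold threshold changed no call, and Trim28 had an adjusted p of 0.0618 without the filter. Without one sample, the Trim28 share of the summed level lay between 85.0% and 91.8% in control and between 58.3% and 61.1% in Kap1 KD cells. With the longest transcript as the length it was 50.5% in Kap1 KD cells, against 59.7%. For Trim66, with 3 to 18 counts, depth limits what can be seen.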
